A study of Mus musculus with 48 samples.

Results

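TRAP-6, a peptide agonist of the thrombin receptor PAR1 (gene F2r), was given at 100 µM for 90 min to primary lung fibroblasts of Gai*-BERKY3 mice, and the RNA response is described here from 12 of the 48 libraries of the study. All libraries of this line were taken: 6 came from stimulated cells and 6 from cells given fresh medium alone for the same 90 min. Each set of 6 held 3 libraries from cells given AAV2/1-CMV-Cre, which switches the biosensor on, and 3 from cells given the empty virus AAV2/1-CMV-empty, which leaves it off. All cells came from mice heterozygous for the Gai*-BERKY3 allele, a Cre-dependent luminescent biosensor of the active Gai protein. They were plated at 160000 per well and given virus about 18 h later. The other groups used are the stimulated and unstimulated lung fibroblasts of Gaq*-BERKY3 and Ga13*-BERKY3 mice, also heterozygous, with the same agonist, times and viruses and 12 libraries a line. All cells of all groups therefore had polybrene, a virus and a change of medium, and cells without these were not analysed here. Within a group the 3 libraries carry a number and nothing on animals or cultures, and the spread behind each p-value may thus be technical.

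PAR1 is a G protein-coupled receptor that thrombin activates by cutting its N terminus, and peptides such as TRAP-6 mimic the new end without a protease. In fibroblasts the receptor can signal through Gi, Gq and G12/13 proteins, which lower cyclic AMP (cAMP), raise calcium and reshape the actin cytoskeleton. The first transcripts to change after such a stimulus are usually those of immediate early genes, which code for transcription factors such as AP-1 and the NR4A receptors, followed by genes of feedback inhibitors, matrix and metabolism.

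Libraries of the Gai line held 15604148 to 27023568 gene counts each. Levels are counts per 1000000 gene counts of the library (CPM). The biosensor entry stood at 126 ± 6.59 CPM with TRAP-6 and Cre virus and 0.689 ± 0.261 CPM with TRAP-6 and empty virus, against 125 ± 16.8 and 0.725 ± 0.338 CPM in the unstimulated cells with these viruses (SD, n = 3 each). Fibroblast markers summed to 31216 to 44742 CPM with TRAP-6 and 31629.5 to 44964 CPM without it. Markers of macrophages (all 13 measured) summed to 1283 to 1513 CPM with TRAP-6 and 1304 to 1629.6 CPM without it, those of mesothelium (8 of 9 measured) to 669.8 to 980.1 and 658 to 873 CPM, and those of endothelium to 27 to 33.9 and 29.7 to 35 CPM. Lymphocyte markers stayed under 1 CPM in sum, with 3 of 10 at 0 in every library, and lung epithelium markers stayed under 4 CPM, with 1 of 12 at 0. Markers of smooth muscle and pericytes (10 measured), which fibroblasts in culture also express in part, summed to 3699 to 4287 CPM with TRAP-6 and 3416 to 3962 CPM without it. Transcripts of fibroblasts were thus the most abundant of these lists, with those of smooth muscle and pericytes, macrophages and mesothelium also present. In such bulk samples, fewer cells of a type and less RNA per cell cannot be told apart. The 15 mitochondrial entries held 0 counts in every library and give no sign of RNA quality.

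The 4 libraries numbered 1 stood apart from the other 8, whatever their virus or stimulation. Comparing number 1 with numbers 2 and 3, 2162 of the 15980 genes tested were higher in number 1 and 2084 lower (26.6% together, edgeR, adjusted p under 0.05). Immediate early genes summed to 7979 to 10251 CPM in the 4 libraries numbered 1 and 9762 to 11825 CPM in the 8 libraries numbered 2 and 3. Of the 32 measured immediate early genes, 21 were lower in number 1, as were 14 of the 25 measured cAMP target genes. Macrophage markers were higher in number 1 for 10 of 13 genes and fibroblast markers for 8 of 12. The replicate number was a term of the model, with virus and stimulation, and the counts for a list are given beside those without that term and without the libraries numbered 1. Single genes named without such values can also lose their call in those models.

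**Figure D1:**
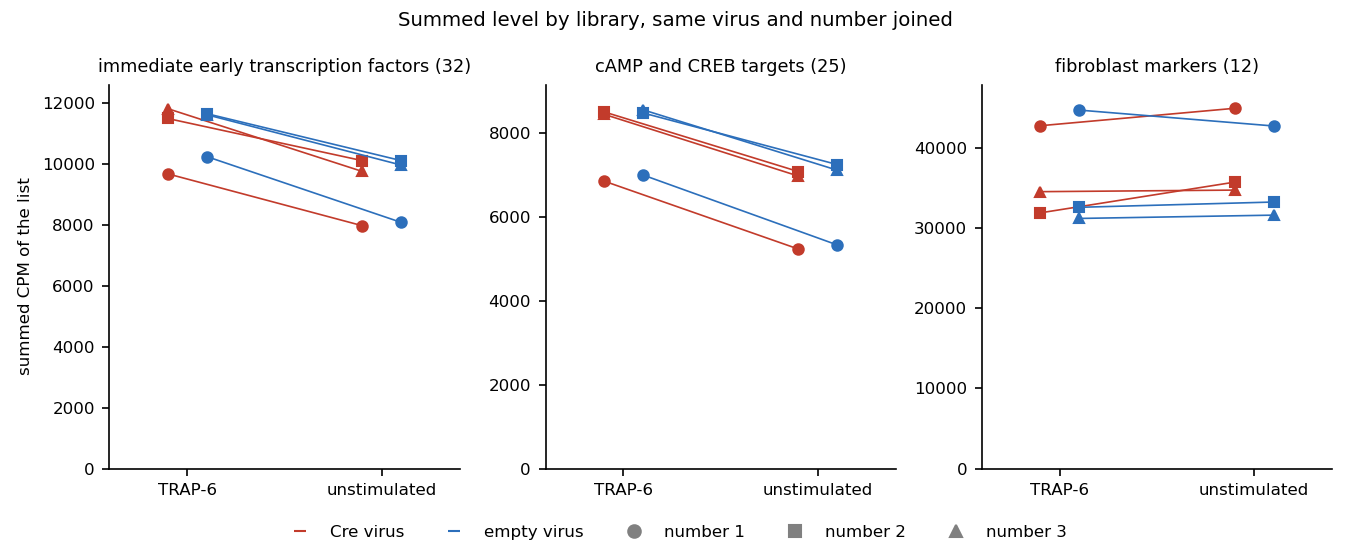
Summed CPM of 3 gene lists in each of the 12 Gai libraries, TRAP-6 at left and unstimulated at right, with libraries of the same virus and number joined by a line (red, Cre virus; blue, empty virus). The immediate early and cAMP target sums are higher with TRAP-6 in all 6 pairs, and at each stimulation the libraries of number 1 lie below the others in these lists and above them for the fibroblast markers.

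TRAP-6 changed 838 of the 15980 genes tested (5.24%) at an adjusted p under 0.05: 481 rose (3.01%) and 357 fell (2.23%). These shares are the background for the list counts that follow. The test was edgeR's robust quasi-likelihood F test with Benjamini-Hochberg adjustment over all genes, and fold changes are log2 of stimulated over unstimulated, given ± their standard error (SE). Most changes were small. The median rise was 0.26 log2 units, which is 1.20-fold, and the median fall was −0.27, which is 0.827-fold; 47 genes rose and 12 fell by at least 1 log2 unit. Of the 838 genes, 710 moved the same way in all 6 pairs of the same virus and number, and 226 had 6 stimulated libraries that did not overlap the 6 unstimulated ones, against 277 such genes among all 15980 tested. Without the replicate number in the model, 208 genes passed (130 higher and 78 lower), 207 of them among the 838 and with the same sign. Without the libraries numbered 1, 694 genes passed (333 higher and 361 lower), of which 525 were among the 838 with the same sign. The receptor gene F2r itself and the genes of the Gi alpha subunits did not pass: the lowest, median and highest level of F2r were 393, 412 and 428 CPM with TRAP-6 and 405, 428 and 446 CPM without it (log2 fold change −0.043 ± 0.027 (SE), adjusted p = 0.474). Gnai1, Gnai2 and Gnai3 had log2 fold changes of −0.046, −0.0024 and 0.065, and F2rl1, which codes for PAR2, had 0.038 (adjusted p 0.259 to 0.983).

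**Figure D2:**
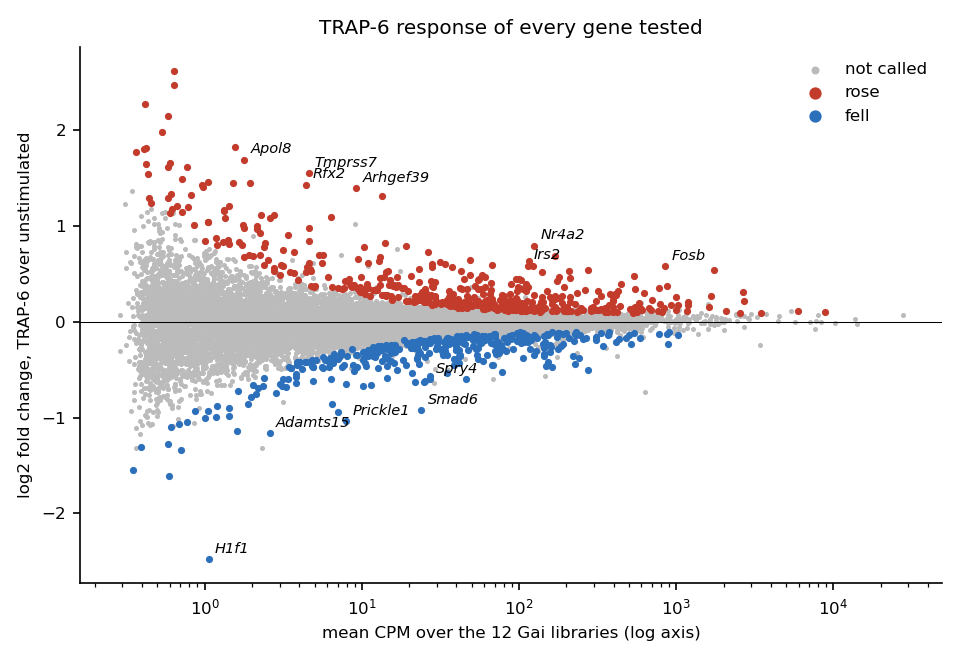
Log2 fold change of TRAP-6 over unstimulated libraries for each of the 15980 genes tested, against the mean CPM over the 12 Gai libraries on a log axis. The 481 genes that rose are red, the 357 that fell blue and the others grey; changes of at least 1 log2 unit lie mostly among genes under 10 CPM, while Nr4a2 and Fosb stand out among genes over 100 CPM.

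Immediate early genes were mostly higher with TRAP-6. The list holds mostly genes of transcription factors, and also others such as Arc, Mcl1 and Zfp36. Of the 32 measured, 23 rose and 3 fell, with a median log2 fold change of 0.26, against 3.01% and 2.23% of all genes and a median of −0.0019. In this list 10 rose and 2 fell without the replicate number in the model, and 19 rose and 3 fell without the libraries numbered 1. The NR4A genes code for nuclear receptors that act without a known hormone and are induced within minutes by many stimuli. The lowest, median and highest level of Nr4a2 were 136, 165 and 172 CPM with TRAP-6 and 69.8, 97.1 and 107 CPM without it. The groups did not overlap, and the log2 fold change was 0.80 ± 0.037 (SE), adjusted p = 1.44e-16. Nr4a3 had 891 to 1074 CPM (median 968) in stimulated libraries, against 729.7 to 825 CPM (median 752) in unstimulated libraries, again without overlap (0.37 ± 0.051, adjusted p = 0.000674). Nr4a1 lay at 873 to 1201 CPM with TRAP-6 (median 1132) and at 749.6 to 1069.5 CPM without it (median 979), and here the groups overlapped although all 6 pairs rose (0.25 ± 0.036 (SE), adjusted p = 2.66e-05).

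Among the AP-1 genes that code for the paired FOS and JUN factors, Fosb moved the most. Fosl1 and Fosl2 did not pass (log2 fold change 0.13 and 0.083, adjusted p = 0.129 and 0.147 in edgeR). Fosb had 838 to 1094 CPM (median 1057) in stimulated libraries, against 587 to 778 CPM (median 698) in unstimulated libraries, with every stimulated library above every unstimulated one (0.58 ± 0.03 (SE), adjusted p = 9.56e-16). Fos lay at 35.8 to 72.6 CPM with TRAP-6 (median 62.4) and at 25.7 to 50.7 CPM without it (median 44.9), with overlap between the groups; Fos rose in all 6 pairs (0.49 ± 0.048 (SE), adjusted p = 5.88e-09) and had an adjusted p of 0.563 without the replicate number. Atf3 had 106 to 158 CPM (median 149) in stimulated libraries, against 74.1 to 105 CPM (median 94.5) in unstimulated libraries, without overlap; this stress-induced factor had a log2 fold change of 0.64 ± 0.04 (SE), adjusted p = 1.5e-12. Jun rose by 0.46 ± 0.036 and Jund by 0.36 ± 0.055 (adjusted p = 5e-11 and 0.00125), and Junb by 0.17 ± 0.037 (adjusted p = 0.00393; 0.104 without number 1). Jun overlaps the antisense gene Junos, and whether the counting used strand is not stated.

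Other early genes rose by like amounts. Arc, which codes for a cytoskeleton-associated protein first known from neurons, had no overlap: the lowest, median and highest level of Arc were 155, 164 and 179 CPM with TRAP-6 and 109, 115 and 123 CPM without it (0.52 ± 0.038 (SE), adjusted p = 2.72e-11). The Krüppel-like factors Klf4, Klf2 and Klf6 had log2 fold changes of 0.48 ± 0.035, 0.44 ± 0.061 and 0.30 ± 0.033, and Myc and the survival gene Mcl1 of 0.34 ± 0.033 and 0.28 ± 0.028 (adjusted p 2.3e-10 to 3.94e-05). Of the EGR genes, Egr1 rose by 0.23 ± 0.031 while Egr2 fell: Egr2 had 102 to 144 CPM (median 131) in stimulated libraries, against 116 to 199 CPM (median 178) in unstimulated libraries (log2 −0.36 ± 0.062 (SE), adjusted p = 0.00518), with overlap but lower in all 6 pairs. Ier5l lay at 9.42 to 14.9 CPM with TRAP-6 (median 10.9) and at 15 to 20.4 CPM without it (median 16.9), with no overlap (log2 −0.58 ± 0.073 (SE), adjusted p = 7.53e-07). The TGF-beta-induced factor Klf10 also fell (−0.29 ± 0.059 (SE), adjusted p = 0.00822). In the model without the replicate number Fos, Jun, Egr1 and Nr4a1 did not pass, with adjusted p between 0.348 and 0.803.

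**Figure D3:**
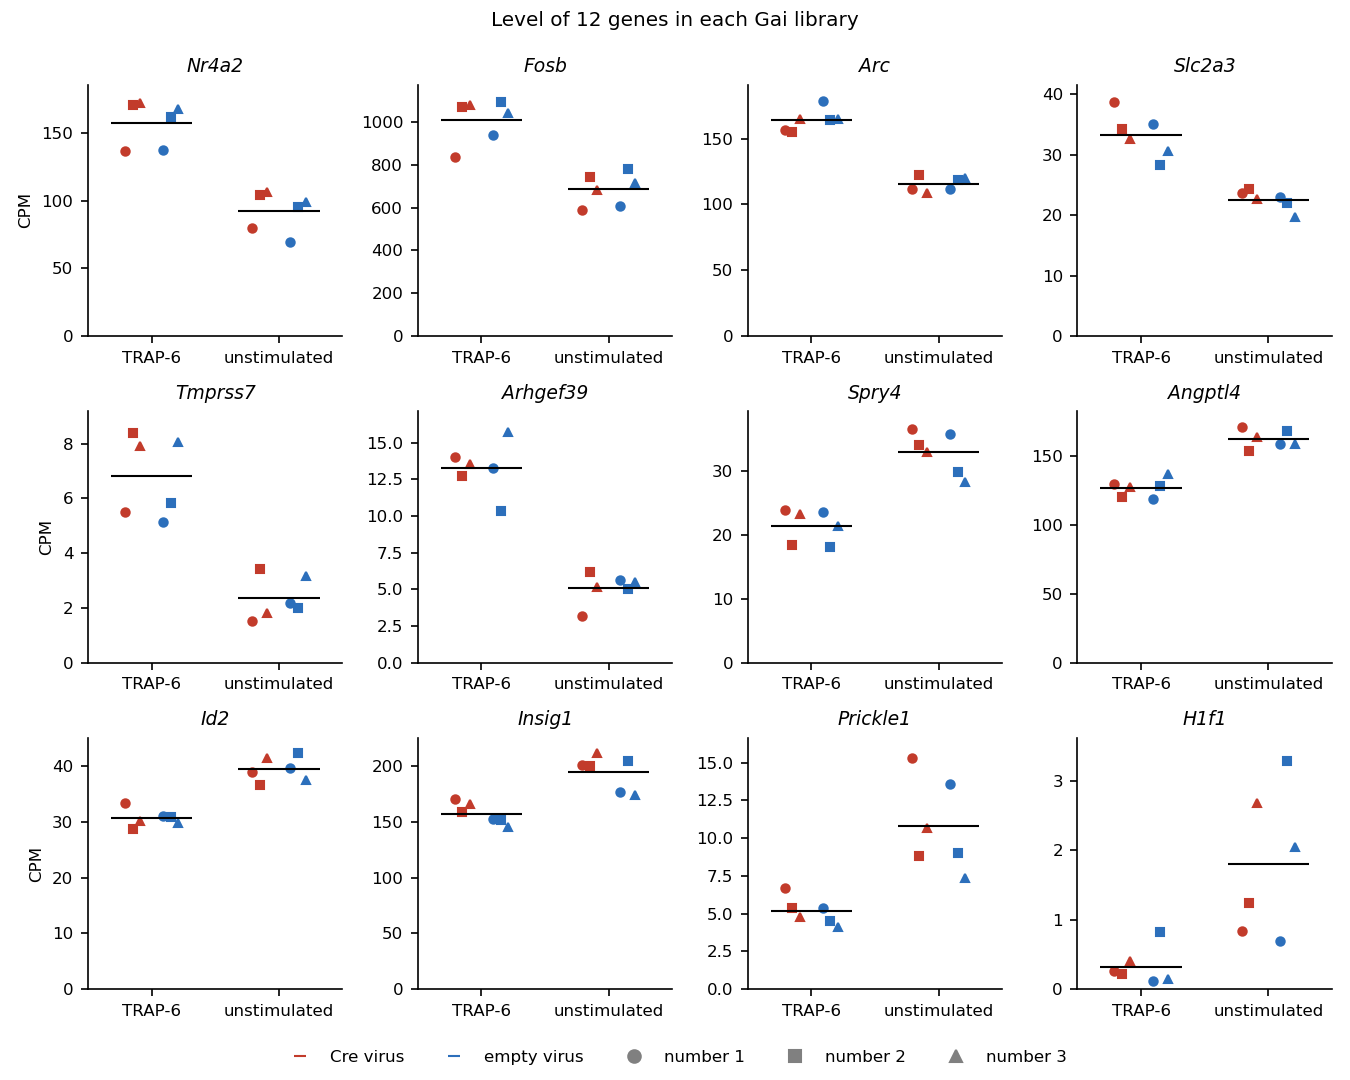
CPM of 12 genes in each Gai library, TRAP-6 at left and unstimulated at right, with Cre virus in red, empty virus in blue, a shape for each replicate number and a bar at the mean of 6 libraries. For Nr4a2, Fosb, Arc, Slc2a3, Tmprss7 and Arhgef39 every stimulated library lies above every unstimulated one, for Spry4, Angptl4, Id2, Insig1 and Prickle1 every one lies below, and for H1f1 the groups overlap.

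The promoters of the NR4A genes and of Fosb are shown because these genes rose together and CREB, the factor that answers cAMP and calcium signals, binds the cAMP response element. Each line is the 250 bases before the start of the gene, 5′ to 3′ on the gene's strand, from RefSeq on GRCm38.p6: Nr4a2 at chr2:57124004-57124253 (minus strand), Nr4a3 at chr4:48045055-48045304 (plus strand), Nr4a1 at chr15:101266596-101266845 (plus strand) and Fosb at chr7:19310046-19310295 (minus strand). Capitals mark the core of the cAMP response element, TGACG, on either strand.

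Nr4a2: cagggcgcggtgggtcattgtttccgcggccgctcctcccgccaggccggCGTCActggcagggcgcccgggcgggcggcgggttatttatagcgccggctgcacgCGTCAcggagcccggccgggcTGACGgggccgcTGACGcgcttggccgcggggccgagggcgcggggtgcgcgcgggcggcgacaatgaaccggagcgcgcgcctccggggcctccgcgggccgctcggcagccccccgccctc
Nr4a3: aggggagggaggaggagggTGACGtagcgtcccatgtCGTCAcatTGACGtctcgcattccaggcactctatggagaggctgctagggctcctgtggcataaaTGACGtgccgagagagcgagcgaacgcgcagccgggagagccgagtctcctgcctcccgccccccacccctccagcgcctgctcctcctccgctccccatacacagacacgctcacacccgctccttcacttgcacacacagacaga
Nr4a1: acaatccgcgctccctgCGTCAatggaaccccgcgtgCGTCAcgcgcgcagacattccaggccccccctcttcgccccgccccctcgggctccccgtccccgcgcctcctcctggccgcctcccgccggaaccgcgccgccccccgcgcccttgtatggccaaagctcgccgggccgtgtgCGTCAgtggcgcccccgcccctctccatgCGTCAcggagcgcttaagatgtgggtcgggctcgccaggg
Fosb: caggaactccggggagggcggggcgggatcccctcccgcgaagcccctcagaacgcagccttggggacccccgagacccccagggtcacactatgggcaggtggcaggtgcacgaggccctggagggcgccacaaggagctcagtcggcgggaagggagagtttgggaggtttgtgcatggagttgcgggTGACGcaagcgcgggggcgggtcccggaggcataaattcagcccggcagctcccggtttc

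The core was present 4 times in each NR4A promoter and 1 time in that of Fosb. None of these promoters held the full element TGACGTCA. Of other cAMP targets that rose, Fos, Atf3, Dusp1 and Rgs2 held the core, while Irs2 and Ptgs2 did not. The same letters occurred in 26.4% of the 10959 promoters of tested genes that the table holds (68.6% of genes tested), in 30.3% of the 366 promoters of genes that rose and in 25.1% of the 259 of genes that fell. Of the immediate early genes, 13 of the 24 with a promoter held it (54.2%), and 11 of the 18 that rose (61.1%). The list of cAMP targets was drawn up for such genes and held it in 13 of 20 (65%). The full element TGACGTCA, which contains the core on both strands, was in 2.61% of all promoters, 1.64% of those that rose and 1.16% of those that fell; Dusp1 was the one cAMP target among those that rose to hold it. The AP-1 motif TGANTCA was in 4.6% of all promoters, 7.92% of those that rose and 4.25% of those that fell, and in none of the 18 promoters of immediate early genes that rose. Base composition was not matched between these sets, and a match of letters is not a bound site.

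The list of cAMP and CREB targets, which also holds the coactivator genes Crtc1 and Crtc2, overlapped that of the immediate early genes. It moved the same way, with a median of 0.25. Of the 25 measured genes 13 rose and 2 fell, against 3.01% and 2.23% of all genes. In this list 5 rose and 0 fell without the replicate number in the model, and 12 rose and 3 fell without the libraries numbered 1. Irs2, an adaptor of the insulin receptor, had separate groups: the lowest, median and highest level of Irs2 were 116, 142 and 148 CPM with TRAP-6 and 75.3, 97.3 and 101 CPM without it (0.59 ± 0.034 (SE), adjusted p = 2.18e-14); it overlaps the transcript 9530052E02Rik. Dusp1, a phosphatase that switches off MAP kinases, showed the same (Dusp1 lay at 266 to 362 CPM with TRAP-6 (median 335) and at 179.7 to 258 CPM without it (median 239); log2 0.54 ± 0.035 (SE), adjusted p = 3.65e-12). Rgs2 shortens Gq signalling and rose in all 6 pairs, with 8.4 to 21.9 CPM with TRAP-6 and 5.15 to 13.1 CPM without it, so that the groups overlapped (0.64 ± 0.083 (SE), adjusted p = 1.74e-06; 0.516 without the replicate number). Ptgs2, the gene of cyclooxygenase-2, and the neurotrophin gene Bdnf rose less, by 0.31 ± 0.032 and 0.27 ± 0.033 (adjusted p = 1.13e-07 and 6.88e-07; 0.723 and 0.468 without the replicate number). The 2 that fell were the clock gene Per1 (−0.19 ± 0.047) and Pde4d, which codes for an enzyme that degrades cAMP (−0.27 ± 0.071; adjusted p = 0.0125 and 0.0321).

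The highest fold changes were in genes of low level that belong to no single pathway. Tmprss7 had 5.14 to 8.4 CPM (median 6.88) in stimulated libraries, against 1.5 to 3.41 CPM (median 2.08) in unstimulated libraries; this gene codes for a membrane-bound serine protease, and of the 4 measured genes of that family it alone was called (1.55 ± 0.15 (SE), adjusted p = 4.12e-09). Arhgef39 lay at 10.4 to 15.7 CPM with TRAP-6 (median 13.4) and at 3.16 to 6.18 CPM without it (median 5.34), and this guanine nucleotide exchange factor gene rose by 1.39 ± 0.12 (SE), adjusted p = 1.78e-08. Rfx2 had 4.55 to 8.03 CPM (median 6.87) in stimulated libraries, against 1.52 to 4.12 CPM (median 2.05) in unstimulated libraries, which codes for a transcription factor of ciliated cells (1.43 ± 0.14 (SE), adjusted p = 1.21e-08). The groups did not overlap for any of these 3 genes.

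Frat2 lay at 5.32 to 11 CPM with TRAP-6 (median 8.75) and at 2.57 to 5.36 CPM without it (median 4.46), with overlap; its protein binds GSK3 and favours Wnt signalling (1.10 ± 0.11 (SE), adjusted p = 1.21e-08). Apol8 had the highest fold change of the 12 risers named by size, 1.69 ± 0.24, on a median of 2.97 CPM with TRAP-6 and 0.917 CPM without it. Fscn2, Slc8a2, Srrm4, Lce1l, Tincr and Dnai7 rose by 1.47, 1.17, 1.16, 1.08, 1.01 and 0.997 log2 units from medians of 0.614 to 1.86 CPM in unstimulated libraries. Fscn2 is known as an actin bundler of the retina, Srrm4 as a splicing factor of neurons and Lce1l as a gene of the skin barrier. Slc8a2, a sodium-calcium exchanger gene, lost its call without the replicate number (adjusted p = 0.0548).

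Stress genes rose in part. The counts of their lists stand beside 3.01% of all genes that rose and 2.23% that fell. In the list of unfolded protein and amino acid stress 6 of its 27 measured genes rose and 0 fell (2 rose and 0 fell without the replicate number in the model, and 5 rose and 0 fell without the libraries numbered 1). Dnajb9, Atf4 and Slc7a11, the cystine transporter gene, rose by 0.19, 0.12 and 0.26. Chac1 had 22.7 to 25.6 CPM (median 23.2) in stimulated libraries, against 14.2 to 19.8 CPM (median 17.4) in unstimulated libraries, with no overlap; its enzyme degrades glutathione (0.48 ± 0.065 (SE), adjusted p = 2.98e-06). Ppp1r15a lay at 47.8 to 75.8 CPM with TRAP-6 (median 68.8) and at 33.8 to 56.5 CPM without it (median 50); its product restarts translation after stress, and the groups overlapped (0.44 ± 0.043 (SE), adjusted p = 4.35e-09; 0.344 without the replicate number). The chaperone gene Hspa5 rose by 0.18 ± 0.03 without overlap (adjusted p = 8e-05). Of the 16 measured heat shock genes 4 rose and 0 fell: Dnajb1 by 0.43 ± 0.033, Hspb8 by 0.20 ± 0.039, Hspb1 by 0.21 ± 0.044 and Hspa1a by 0.62 ± 0.097, of which Hspa1a shares reads with its near-identical copy Hspa1b and is uncertain. Without the replicate number Dnajb1 alone of these 4 passed, at an adjusted p of 0.0372, and without number 1 this list had 2 genes higher and 1 lower.

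Interferon response genes had a high median, 0.25. Of the 38 measured 5 rose, 1 fell and 32 did not pass, against 3.01% of all genes that rose and 2.23% that fell. The 1 that fell is near the second share. The median of within-number log2 ratios was 0.48 in number 1, 0.10 in number 2 and 0.18 in number 3. Ifih1 had 17.2 to 26 CPM (median 20.3) in stimulated libraries, against 14.2 to 18.2 CPM (median 16.3) in unstimulated libraries; the groups overlapped, and it codes for a sensor of viral RNA (0.36 ± 0.076 (SE), adjusted p = 0.00305, and 0.24, adjusted p = 0.0823 without number 1). Trim25, Isg20 and Irf9 rose by 0.17 ± 0.039, 0.27 ± 0.069 and 0.21 ± 0.054, and Cmpk2 by 1.20 ± 0.33 from a median under 1 CPM. The chemokine gene Cxcl10 fell by 0.74 ± 0.19 on the log2 scale (adjusted p = 0.0158). Without the replicate number, Ifih1 was the one gene of the list to pass (adjusted p = 0.0397), and without number 1 the list had 4 genes higher and 1 lower.

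Genes of the cytoskeletal response had small changes. The list counts here stand beside 3.01% of all genes that rose and 2.23% that fell. The SRF and MRTF list had 30 measured genes, mostly of the actin cytoskeleton, and it also holds Srf, Mrtfa and Mrtfb themselves. Of these genes 5 rose and 0 fell, with none called without the replicate number and 1 higher and 1 lower without number 1. Vcl, the gene of vinculin, had 1538 to 1887 CPM with TRAP-6 and 1425 to 1639 CPM without it (0.15 ± 0.033 (SE), adjusted p = 0.0045), and the groups overlapped. The other risers were Tagln2, Fhl1, Pdlim5 and the myosin gene Myh9, by 0.13, 0.13, 0.15 and 0.094, and without number 1 Tagln2 alone of the 5 passed. The YAP and TAZ list of 24 genes holds targets and also Yap1, Wwtr1 (the gene of TAZ) and Tead1. Of the 24 genes 6 rose and 2 fell. Without the replicate number in the model 1 rose and 0 fell, and 2 rose and 2 fell without the libraries numbered 1. The lowest, median and highest level of Amotl2 were 412, 426 and 449 CPM with TRAP-6 and 326, 369 and 392 CPM without it, with no overlap; its protein restrains YAP (0.27 ± 0.038 (SE), adjusted p = 3.94e-05). Ccn1 and Ccn2, matricellular genes often used to read YAP activity, rose by 0.12 ± 0.028 and 0.088 ± 0.025 (adjusted p = 0.00677 and 0.0299) and had adjusted p of 0.14 and 0.181 without number 1. Dlc1, a tumour suppressor gene, Ptpn14 and Crim1 rose by 0.17, 0.14 and 0.100, while Nuak2 and Nt5e fell by 0.20 and 0.23.

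Of the 35 matrix and myofibroblast genes 5 rose and 1 fell, against 3.01% and 2.23% of all genes. In this list 1 rose and 0 fell without the replicate number in the model, and 5 rose and 2 fell without the libraries numbered 1. The collagen cross-linking enzyme gene Lox rose by 0.10 ± 0.025, the inhibitor gene Timp3 by 0.12 ± 0.027, Fbln5 by 0.15 ± 0.032, the collagenase gene Mmp13 by 0.21 ± 0.052 and Plau, the gene of urokinase, by 0.45 ± 0.100, while Thbs2 fell (−0.18 ± 0.047). Plau lay at 94.4 to 132 CPM with TRAP-6 (median 105) and at 66.2 to 89.2 CPM without it (median 81.6), with no overlap. Among the markers of other cells, 3 of the 8 measured mesothelium genes rose: Wt1 by 0.27 ± 0.042, Msln by 0.23 ± 0.043 and Krt8 by 0.26 ± 0.067, none of which passed without the replicate number; 2 genes of the list rose and 0 fell without number 1. Mesothelium markers were higher in number 1 for 7 of 8 genes, and the part of these cells in the results was not tested. Of the 13 macrophage markers 1 rose, Cd14 (0.18 ± 0.045), while the median of that list was −0.067. Of the 10 endothelial markers 1 fell, Cldn5 (−1.10 ± 0.33), with a list median of −0.072. Neither gene passed without number 1. Cldn5 also lost its call in 10 of the 12 fits with 1 library left out and did not pass in DESeq2. Of the 10 smooth muscle and pericyte markers 0 passed with edgeR and DESeq2 (1 at an unadjusted p under 0.05 in edgeR), nor did the 2 measured markers of lung epithelium, the 2 of Schwann cells and neurons or the 1 of erythroid cells. Of the fibroblast markers, Vim rose (0.21 ± 0.026, no overlap) while Pdgfra and Pdgfrb, the receptors of platelet-derived growth factor, fell by 0.25 and 0.17 (adjusted p = 0.131 and 0.0548 without the replicate number). Of the 12 fibroblast markers 1 rose and 2 fell; 1 rose and 0 fell without the replicate number, 1 rose and 2 fell without number 1.

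Genes that fell included inhibitors and receptors of growth factor pathways. The ERK feedback list had 16 measured genes, most of them inhibitors, and it also holds the transcription factor genes Etv1, Etv4 and Etv5. Of its genes 4 fell and 1 rose, against 2.23% and 3.01% of all genes. In this list 0 rose and 1 fell without the replicate number in the model, and 0 rose and 5 fell without the libraries numbered 1. Spry4 had 18.2 to 23.9 CPM (median 22.3) in stimulated libraries, against 28.3 to 36.6 CPM (median 33.5) in unstimulated libraries, with no overlap; SPRY4 restrains the ERK pathway downstream of receptor tyrosine kinases (−0.60 ± 0.058 (SE), adjusted p = 4.1e-09). Spred2, Spred1 and Dusp6 fell by 0.19, 0.12 and 0.15, and Dusp5 rose by 0.16. Without the replicate number Spry4 alone of these 5 passed (adjusted p = 0.000376).

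In the BMP and TGF-beta pathway 7 of 37 measured genes fell and 0 rose, against 2.23% and 3.01% of all genes. The list's median was near that of all genes (0.019). Without the replicate number in the model 2 of these 7 fell, and 8 genes fell without number 1. Smad6 lay at 14.4 to 20.2 CPM with TRAP-6 (median 15.1) and at 24.9 to 35.9 CPM without it (median 30.9), with no overlap; it codes for an inhibitory SMAD that BMP signals induce (−0.92 ± 0.11 (SE), adjusted p = 0.000169). Of the Id genes, direct BMP targets that block differentiation factors, Id1, Id2 and Id3 fell, while Id4 did not pass (−0.21, adjusted p = 0.212). The lowest, median and highest level of Id2 were 28.8, 30.6 and 33.4 CPM with TRAP-6 and 36.7, 39.3 and 42.3 CPM without it (−0.35 ± 0.051 (SE), adjusted p = 1.39e-05), and the groups were separate. Id3 and Id1 had log2 fold changes of −0.37 ± 0.041 and −0.30 ± 0.074, and within number 1 Id1 moved by −0.0069, against −0.36 in number 2 and −0.53 in number 3. Smad3, Tgfb1 and the BMP antagonist gene Grem1 also fell, by 0.27, 0.15 and 0.21.

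In the Wnt and planar polarity list 7 of 40 measured genes fell and 3 rose, against 2.23% and 3.01% of all genes. In this list 2 rose and 2 fell without the replicate number in the model, and 2 rose and 5 fell without the libraries numbered 1. Prickle1 had 4.12 to 6.73 CPM (median 5.08) in stimulated libraries, against 7.37 to 15.3 CPM (median 9.87) in unstimulated libraries, with no overlap; its protein sets planar polarity (−1.04 ± 0.096 (SE), adjusted p = 1.8e-09). Fzd1 lay at 182 to 233 CPM with TRAP-6 (median 206) and at 251 to 314 CPM without it (median 271), also without overlap; it codes for a Wnt receptor (−0.38 ± 0.041 (SE), adjusted p = 1.49e-06), and the receptor genes Fzd7 and Fzd5 had −0.19 ± 0.037 and 0.36 ± 0.05. Wnt4, Nkd2, Dvl1 and Sfrp1 fell by 0.45, 0.30, 0.12 and 0.14, and Axin1 rose by 0.19, as did Frat2. Of the 19 Notch pathway genes, Hes1, a target that represses transcription, fell (−0.27 ± 0.066) and the Notch inhibitor gene Numbl rose (0.23 ± 0.039). Both lost their call without the replicate number (adjusted p = 0.672 and 0.0694), and in the list 1 rose and 1 fell without number 1. The other named genes that fell were low: Adamts15 (−1.16), the retinoic acid-degrading enzyme gene Cyp26a1 (−1.14), Atoh8 (−0.95), Zfp72 (−0.9998) and Zfp759 (−0.93). Adamts15, Cyp26a1, Zfp72 and Zfp759 did not pass without the replicate number.

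Metabolic genes moved in both directions. Of the 28 measured genes of cholesterol synthesis 4 fell and 0 rose (median −0.093), and without number 1 this became 11 that fell and 0 that rose (median −0.17). The within-number medians were 0.015 in number 1, −0.18 in number 2 and −0.15 in number 3. The lowest, median and highest level of Insig1 were 145, 156 and 170.3 CPM with TRAP-6 and 174, 201 and 212 CPM without it; the groups did not overlap, and INSIG1 holds back SREBP processing (−0.29 ± 0.038 (SE), adjusted p = 5.61e-06). Stard4, a sterol carrier gene, Fdft1, the squalene synthase gene, and Lss, the lanosterol synthase gene, fell by 0.28, 0.27 and 0.21. Slc2a3 had 28.3 to 38.6 CPM (median 33.4) in stimulated libraries, against 19.6 to 24.3 CPM (median 22.9) in unstimulated libraries, without overlap; it codes for the glucose transporter GLUT3 (0.58 ± 0.054 (SE), adjusted p = 2.8e-09). Hk2 lay at 450.3 to 496 CPM with TRAP-6 (median 468) and at 528 to 573 CPM without it (median 563), without overlap in the other direction; hexokinase 2 takes the first step of glycolysis (−0.23 ± 0.031 (SE), adjusted p = 2.53e-06). Pdk4, whose kinase holds back pyruvate oxidation, fell as well (−0.34 ± 0.097 (SE), adjusted p = 0.0288), but lost its call in 7 of the 12 fits with 1 library left out and without number 1 (adjusted p = 0.158). Of the 25 measured glucose genes 1 rose and 2 fell (1 rose and 1 fell without the replicate number, 1 rose and 1 fell without number 1). Over all genes 3.01% rose and 2.23% fell, and the 1 riser is near the first share.

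Secreted growth factor genes split, with 4 of 32 higher and 5 lower, against 3.01% and 2.23% of all genes. In this list 1 rose and 2 fell without the replicate number in the model, and 2 rose and 8 fell without the libraries numbered 1. Angptl4 had 118 to 137 CPM (median 128) in stimulated libraries, against 153 to 171 CPM (median 161) in unstimulated libraries, with no overlap; ANGPTL4 inhibits lipoprotein lipase (−0.34 ± 0.036 (SE), adjusted p = 2.28e-08). The neurotrophic factor gene Gdnf rose by 0.32 ± 0.045, and Ereg and Il11 by 0.18 ± 0.045 and 0.21 ± 0.049. Fgf2, Fgf10, Hgf and Igf1 fell by 0.17, 0.28, 0.19 and 0.24; Fgf2 and Igf1 overlap antisense genes. Of the 60 receptor and G protein signalling genes 2 rose and 2 fell (1 rose and 0 fell without the replicate number, 3 rose and 2 fell without number 1), shares near the 3.01% and 2.23% of all genes: Rgs2, given above, Procr, the endothelial protein C receptor gene (0.42 ± 0.064), S1pr3, a sphingosine phosphate receptor gene (−0.30 ± 0.05), and Rgs3 (−0.37 ± 0.10). Of the 34 measured NF-kB and inflammatory genes 1 rose (Ptgs2) and 2 fell (0 rose and 0 fell without the replicate number, 1 rose and 5 fell without number 1), the 2 being Ptges (−0.20 ± 0.045) and Cxcl12 (−0.12 ± 0.03). The 17 measured genes of the calcium and NFAT list hold pathway members such as Ppp3ca, Camk2d and Nfatc3 as well as targets. Of them 1 rose, Nfatc2, by 0.97 ± 0.17, and 1 fell, Mef2d (−0.13 ± 0.037). For this list 0 rose and 0 fell without the replicate number, and 1 rose and 1 fell without number 1. Of the 29 p53 and DNA damage genes Ccng2 rose (0.20) and Pmaip1, Plk3 and Etaa1 fell (−0.16, −0.16 and −0.75). For this list 0 rose and 1 fell without the replicate number, and 1 rose and 3 fell without number 1. Counts of the NF-kB, calcium and p53 lists stand beside 3.01% of all genes that rose and 2.23% that fell. The 1 riser in each of the NF-kB and p53 lists is near the first share.

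Histone genes had the lowest list median, −0.35, with 5 of 19 measured genes lower and 0 higher, against 2.23% and 3.01% of all genes. In this list 0 rose and 1 fell without the replicate number in the model, and 0 rose and 8 fell without the libraries numbered 1. H1f1 had 0.111 to 0.818 CPM with TRAP-6 (median 0.235), against 0.686 to 3.28 CPM without it (median 1.65); the groups overlapped, all 6 pairs fell and the log2 fold change was −2.48 ± 0.34 (SE), adjusted p = 8.03e-06. H1f4, H2bc6, H1f0 and H2bc4 fell by 0.98, 0.79, 0.28 and 0.21. H3c4, named by its fold change of −0.99, was separate between the groups but did not pass without number 1 (adjusted p = 0.125). Most histone transcripts lack a poly-A tail, libraries made from poly-A RNA catch few of them, and near-identical copies can share reads, so these values are uncertain. Of the 20 S phase and the 22 G2 and M phase genes, 0 passed with edgeR and 0 with DESeq2, and 4 and 1 of them had an unadjusted p under 0.05 in edgeR.

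**Figure D4:**
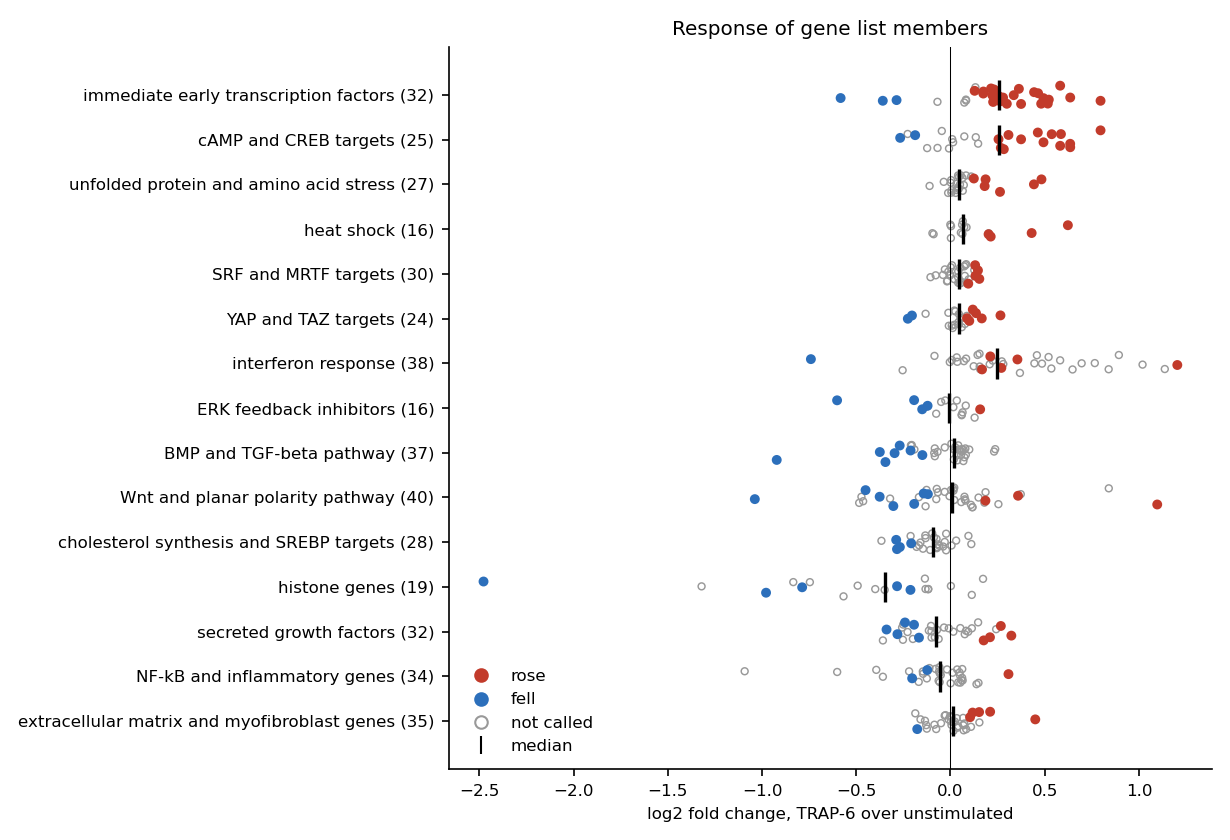
Log2 fold change of TRAP-6 over unstimulated libraries for the measured members of 15 gene lists, with the number of measured members in brackets; filled points passed the test (red rose, blue fell), open points did not, and the bar is the list's median. The medians of the immediate early, cAMP and interferon lists lie near 0.25, that of the histone genes lies at −0.35, and most members of the other lists lie within 0.2 of 0.

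The biosensor transcript was near 0 with empty virus, and the response was also read in each virus. With Cre virus 231 genes rose (1.45%) and 124 fell (0.776%), and with empty virus 159 rose (0.995%) and 95 fell (0.594%); 186 genes passed in both with the same sign. All 838 genes called over both viruses had the same sign in each, which is a description, since they were called on the same libraries. Nr4a2 rose by 0.74 ± 0.051 with Cre virus and 0.86 ± 0.051 with empty virus, a difference of −0.12 ± 0.072. The same difference was −0.00034 ± 0.061 for Fosb, 0.30 ± 0.30 for Tmprss7 and −0.11 ± 0.12 for Spry4. Tested over all genes, the difference between the responses passed for 0 genes (0%) with edgeR and for 0 with DESeq2, with 692 genes at an unadjusted p under 0.05 in edgeR. A p that misses the threshold does not show that the responses are alike.

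The response of the Gai line was set against the mean response of the Gaq and Ga13 lines in 1 fit over 36 libraries and 16749 genes. It was higher in Gai for 42 genes (0.251%) and lower for 174 (1.04%). Of these 216 genes, 110 were among the 838 genes of the Gai response. For 122 of the 216 the Gai response had the same sign as the mean of the other lines and was smaller. It was larger with the same sign for 12 and of opposite sign for 82. F2r stood at 393 to 446 CPM in the Gai line, 387 to 448 in the Gaq line and 438 to 497 in the Ga13 line. Mouse line, animals and culture cannot be told apart, since each line came from its own mice. Without the replicate number 61 genes differed, and leaving out the Gai libraries of number 1, 2 or 3 gave 365, 104 and 80.

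The cAMP target list held more differences than the other lists: 11 of 26 measured genes were lower in Gai and 0 higher. Its median responses were 0.26 in Gai, 0.45 in Gaq and 0.45 in Ga13. The log2 response of Nr4a2 was 0.80 ± 0.039 in the Gai line, 1.34 ± 0.04 in the Gaq line and 1.29 ± 0.039 in the Ga13 line, a difference of −0.52 ± 0.048, adjusted p = 1.95e-11. Fosb showed 0.58 ± 0.043 in the Gai line, 1.13 ± 0.044 in the Gaq line and 1.09 ± 0.044 in the Ga13 line (−0.53 ± 0.053, adjusted p = 1.73e-06), and Nr4a3 0.38 ± 0.069 in the Gai line, 0.94 ± 0.07 in the Gaq line and 0.86 ± 0.069 in the Ga13 line (−0.52 ± 0.084, adjusted p = 0.00103). Sik1, a kinase gene that CREB induces, did not pass in Gai: 0.015 ± 0.034 in the Gai line, 0.44 ± 0.036 in the Gaq line and 0.31 ± 0.035 in the Ga13 line (−0.36 ± 0.043, adjusted p = 3.51e-08). The kinase gene Sgk1 had 0.18 ± 0.024 in the Gai line, 0.52 ± 0.025 in the Gaq line and 0.54 ± 0.024 in the Ga13 line (−0.35 ± 0.03, adjusted p = 2.69e-13), Gdnf 0.32 ± 0.04 in the Gai line, 0.76 ± 0.043 in the Gaq line and 0.76 ± 0.041 in the Ga13 line (−0.44 ± 0.05, adjusted p = 3.51e-08) and the transcription coregulator gene Cited2 0.23 ± 0.028 in the Gai line, 0.49 ± 0.029 in the Gaq line and 0.56 ± 0.029 in the Ga13 line (−0.29 ± 0.035, adjusted p = 3.51e-08). Nr4a1, Fos and Atf3 differed by −0.071 ± 0.06, −0.12 ± 0.11 and −0.12 ± 0.049, which did not pass.

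In other lists, 8 of 24 genes of YAP and TAZ and 5 of 30 of SRF and MRTF were lower in Gai, against 1.04% of all genes. So were 6 of 34 NF-kB and inflammatory genes, 5 of 28 cholesterol genes and 8 of 32 immediate early genes. Some of these are also in the cAMP target list: Ptgs2 among the NF-kB genes, and Nr4a2, Nr4a3 and Fosb among the immediate early genes. Higher in Gai were 1 gene of the YAP and TAZ list, Nuak2, and 1 immediate early gene, Ier5l. Both fell in every line, and less in Gai (−0.20 and −0.58) than in Gaq (−0.53 and −0.97) or Ga13 (−0.42 and −0.89). Also higher were 4 of 27 unfolded protein and amino acid stress genes. Of these Hspa5 rose in Gai (0.18), while Ddit3, Trib3 and Herpud1 did not pass there (−0.11, 0.033 and 0.055). The latter had −0.36, −0.23 and −0.10 in Gaq and −0.40, −0.39 and −0.15 in Ga13. Amotl2 showed 0.27 ± 0.031 in the Gai line, 0.54 ± 0.031 in the Gaq line and 0.54 ± 0.031 in the Ga13 line (−0.27 ± 0.038, adjusted p = 2.93e-06). Hes1 fell less in Gai, with −0.27 ± 0.071 in the Gai line, −0.73 ± 0.073 in the Gaq line and −1.02 ± 0.072 in the Ga13 line (0.61 ± 0.088, adjusted p = 2.93e-06). Stard4 fell in Gai by 0.28, with 0.059 in Gaq and −0.091 in Ga13 (−0.27 ± 0.062, adjusted p = 0.00925). In the interferon list 0 of 39 genes differed with edgeR and 0 with DESeq2 (13 at an unadjusted p under 0.05 in edgeR), and the medians were 0.27 in Gai, −0.12 in Gaq and −0.39 in Ga13. Among the named genes that did not pass this edgeR test were Tmprss7, Prickle1, Spry4 and Angptl4. The difference was 0.38 ± 0.23 (adjusted p = 0.636) for Tmprss7 and −0.056 ± 0.11 (adjusted p = 0.936) for Prickle1. It was 0.12 ± 0.072 (adjusted p = 0.638) for Spry4 and 0.012 ± 0.048 (adjusted p = 0.974) for Angptl4.

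**Figure D5:**
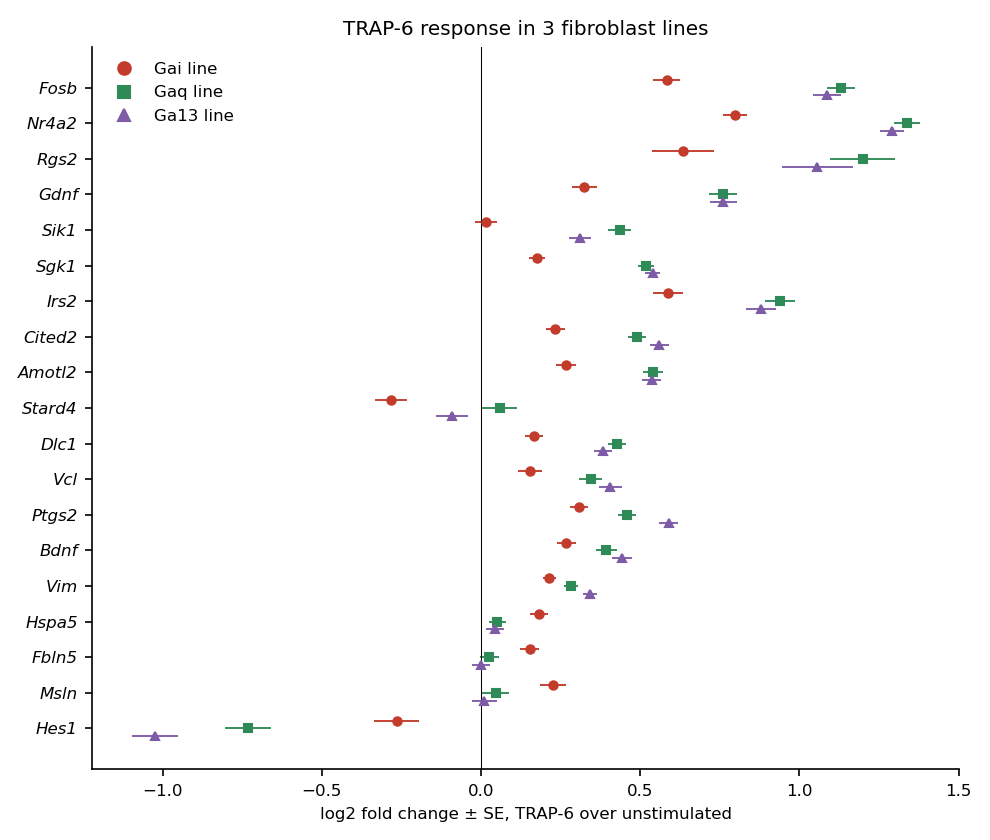
Log2 response to TRAP-6 with its standard error in the Gai line (red circles), the Gaq line (green squares) and the Ga13 line (purple triangles), for 19 named genes whose response in Gai differed from the mean of the other lines. Most responses of Gai lie closer to 0 than those of Gaq and Ga13, while those of Stard4, Hspa5, Fbln5 and Msln lie farther from 0.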

How the data were processed

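The data were poly-A RNA-seq libraries of primary lung fibroblasts: 12 libraries of the Gai*-BERKY3 line in 4 groups of 3 and, for the comparison of lines, 24 of the Gaq*-BERKY3 and Ga13*-BERKY3 lines. The authors deposited raw counts per gene for 50763 genes and a biosensor entry. The processing notes of the submitters name fastp, Subread, featureCounts and GRCm39, with versions, annotation and strand setting not given in the sources used here. The biosensor entry was left out of library sizes and tests.

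Genes were kept by edgeR's filterByExpr on the groups, scaled with TMM (factors 0.976 to 1.02) and tested with the robust quasi-likelihood F test of edgeR 4.0.16 in R 4.3.3, with replicate number, virus and stimulation as terms and Benjamini-Hochberg adjustment over all genes (adjusted p under 0.05). Each SE of a log2 fold change was derived from its F statistic. Responses by virus used the group means with replicate number, and the lines were fitted together over 36 libraries. The biological coefficient of variation was 0.0527 with the replicate number and 0.0875 without it. Alternatives were no replicate number, other scaling, no filter, DESeq2 1.42.0, the non-robust fit, each library or number left out and, added after seeing the data, number 1 against the others as the block. Depth bounds the precision of low genes, and CPM values carry counting error.

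The members, the 23 pathway lists and the 9 marker lists were chosen with earlier results of these data known. Genes were named by rule: the 12 highest and 8 lowest called fold changes at a mean of at least 1 CPM that moved alike in all 6 pairs, up to 3 called members a list with the smallest p, the receptor and Gi genes, and 5 line differences. Other named members of the lists were picked after their values were seen, and a few genes that the rule names are not reported here.

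Promoters came from a RefSeq table of GRCm38.p6. Overlaps were looked up in that table and in the GENCODE annotation of GRCm38, which holds the symbols of 92.5% of the genes tested; Dnai7, Tincr and the named histone genes other than H1f0 were not matched there. Arhgef39, Arrdc3, Atf3, Atoh8, Axin1, Bdnf, Ccn2, Crim1, Cxcl10, Ddit3, Dnajb9, Dusp1, Dusp5, Dusp6, Dvl1, Egr2, Ereg, Fdft1, Fgf10, Fgf2, Fhl1, Fosl1, Fzd5, Gnai1, Gnai2, H1f0, H2bc6, Herpud1, Hgf, Hk2, Hoxa3, Hoxb2, Hspa1a, Hspa5, Hspb8, Id4, Ifih1, Igf1, Il11, Insig1, Irf9, Irs2, Jun, Junb, Jund, Klf10, Krt8, Lox, Lss, Mef2d, Myh9, Nkd2, Nr4a2, Nuak2, Numbl, Pde4d, Pdgfra, Plk3, Ppp1r15a, Ptges, Ptpn14, Rfx2, Rgs3, S1pr3, Sgk1, Sik1, Slc2a3, Slc7a11, Smad3, Spry4, Srrm4, Timp3, Trim25, Txnip, Vcl, Zfp36, Zfp703 and Zfp72 overlap another annotated gene or transcript in at least 1 of the sources, and their values are uncertain to that extent.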

Additional observations from a re-analysis of the deposited data

Results flagged for a closer look

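The TRAP-6 response of 19 named genes differed between the Gai line and the mean of the Gaq and Ga13 lines, tested as a difference in the edgeR fit over 36 libraries (adjusted p under 0.05). Differences are Gai minus the mean of the others in log2 units. The response was lower in Gai for genes of transcription and signalling: Nr4a2 (−0.52), Fosb (−0.53), Rgs2 (−0.49), Gdnf (−0.44), Sik1 (−0.36), Sgk1 (−0.35), Irs2 (−0.32), Cited2 (−0.29), Ptgs2 (−0.21) and Bdnf (−0.15). It was also lower for the cytoskeletal and YAP genes Amotl2 (−0.27), Dlc1 (−0.24), Vcl (−0.22) and Vim (−0.098) and the sterol carrier gene Stard4 (−0.27). It was higher for Hes1 (0.61), which fell less in Gai, and for Msln (0.20), Fbln5 (0.14) and Hspa5 (0.13). Without the Gai libraries numbered 1, Rgs2, Fbln5 and Msln did not pass, with adjusted p of 0.0525, 0.231 and 0.148. The part of the libraries numbered 1, of mesothelial cells or of differences between the mice in these results was not tested.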

How the results depend on the processing

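The replicate number decided many calls. Its pairing is not given by the labels: correlations of deviations were 0.298 to 0.368 between libraries numbered 1, 0.0309 to 0.134 between those numbered 2, 0.0571 to 0.172 between those numbered 3 and 0.0645 to 0.255 between numbers 2 and 3, and 4 of 12 libraries correlated best with their own number. With no replicate block, 208 genes were called over both viruses in place of 838, 38 with Cre virus in place of 355, 19 with empty virus in place of 254, and 61 between lines in place of 216. Without number 1, 2 or 3 the counts were 694, 539 and 450 over both viruses, 233, 262 and 208 with Cre virus, 172, 178 and 136 with empty virus, 0, 2 and 0 for the difference between viruses, and 365, 104 and 80 between lines. With 1 library left out they were 596 to 907, 210 to 383, 143 to 319, 0 to 1 and 116 to 273 in that order; the lowest came without unstimulated empty-virus library 2, unstimulated Cre-virus library 1, stimulated empty-virus library 1 and, for the lines, unstimulated empty-virus library 2. With no filter on low counts, 538 genes were called with Cre virus, 427 with empty virus, 5 for the difference between viruses and 453 between lines. DESeq2 called 734 genes over both viruses and number 1 against the others as block 939. Of the 81 named genes called, 33 kept the call in every alternative, 45 lost it without the replicate number, 15 lost it with 1 library left out (Cldn5 in 10 of 12 such fits, Pdk4 in 7, Pmaip1 in 6, Mef2d and Zfp759 in 5 each, the others in 1 to 3) and 0 changed sign. The cause of the lost calls was not tested. Depth limits genes under 1 CPM, where 36 of the 838 calls lie.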

Other observations

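The groups of genes that follow were chosen after their values were seen, and they carry no test of the group. Of 359 measured genes with Zfp symbols, most of which code for zinc finger proteins, 33 fell and 3 rose with TRAP-6 (edgeR, adjusted p under 0.05). Over all genes 2.23% fell and 3.01% rose. The median log2 fold change of the Zfp genes was −0.12, and without the libraries numbered 1, 12 of them fell and 2 rose. Zfp281 had 54.6 ± 2.26 CPM with TRAP-6 and 70.5 ± 6.76 CPM without it (SD, n = 6 each), with no overlap. The risers were Zfp385a (0.31), Zfp703 (0.15) and Zfp36 (0.26), whose protein binds RNA.

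Hoxa3 and Hoxb2, genes that pattern the body axis, fell, and both had separate groups. Hoxa3 had 8.79 ± 1.41 CPM with TRAP-6 and 13.96 ± 1.35 CPM without it, and Hoxb2 had 6.14 ± 0.482 and 9.75 ± 0.752 CPM (SD, n = 6 each). The log2 fold changes were −0.66 and −0.65. Of the 5 arrestin-domain genes with Txnip, 3 fell, against 2.23% of all genes: Arrdc3 by 0.63, Txnip by 0.32 and Arrdc4 by 0.18 on the log2 scale. All 30 measured genes with histone symbols had a median of −0.50, with 10 lower and 0 higher, against 2.23% and 3.01% of all genes.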
